A study of Mus musculus with 2 samples.

Results

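Interferon-responding microglia were a class of 458 of 4540 microglia (and of 5696 cell barcodes in all) in 2 single-cell RNA libraries from mouse brain, and they were selected on measured values. A barcode was kept when at least 500 genes had a UMI (a counted RNA molecule) and at most 10% of its UMIs came from mitochondrial (mt-) genes, which left 5127 barcodes. It counted as a microglia when at least 3 of the 4 microglial genes P2ry12, Tmem119, Siglech and Fcrls had a UMI, and as interferon-responding when at least 5 of the 8 interferon-induced genes Isg15, Ifit1, Ifit2, Ifit3, Oasl2, Rsad2, Usp18 and Irf7 had one. The study compared repopulated microglia of Hk2 fl/fl and Hk2 cKO mice at day 3 of repopulation, with 1 library per genotype. Hk2 encodes hexokinase 2, an enzyme of the first step of glycolysis.

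Both libraries came from C57BL/6 brain and held cells sorted by flow cytometry as CD11b high and CD45 low, the usual gate for microglia. The fl/fl animals carried the floxed Hk2 alleles without the driver. The cKO animals carried the same alleles and Cx3cr1CreER, a tamoxifen-dependent recombinase driven from the Cx3cr1 locus, which is active in microglia and other Cx3cr1-expressing myeloid cells. The labels describe 100 µg tamoxifen on 2 consecutive days at postnatal days 1 to 2, or another schedule where stated. How many animals were pooled, their age at collection, the method of depletion, the floxed exons and whether fl/fl animals received tamoxifen are not given in the sources used here. With 1 library per genotype no test was possible: every difference between groups of cells or between genotypes is a description of these libraries, and the 95% intervals (Clopper-Pearson for shares, Poisson for counts) cover counting error only.

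Type I interferons bind the receptor formed by Ifnar1 and Ifnar2, whose kinases Jak1 and Tyk2 phosphorylate transcription factors such as Stat2. Stat2 and Irf9 are parts of a transcription complex that binds interferon-stimulated response elements, repeats of GAAA-like letters near the start of interferon-stimulated genes. The induced proteins sense viral nucleic acid, block viral replication and present antigen, and some of them, such as Usp18, dampen the same receptor; in the brain, a minority of microglia with this program is known from development, ageing, injury and infection.

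The fl/fl library held 3089 barcodes and the cKO library 2607, with a median of 9233 and 10532 UMIs per barcode. Of these, 2520 and 2020 were microglia by the rule. The libraries shared 2 barcode sequences, 1 of which was a member. No doublet caller was run. A pair of features set the libraries apart: mt-Nd3 was lower by 5.29 on the log2 scale in cKO than in fl/fl members, while Gm28438, a predicted gene model, was higher in cKO. Within fl/fl both kinds of cell occurred, 1262 microglia with UMIs of mt-Nd3 alone and 488 with Gm28438 alone; in cKO the numbers were 4 and 1745. This difference between the libraries and the genotype cannot be told apart.

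In fl/fl, 93 of 2520 microglia were interferon-responding (3.69%, interval 2.99 to 4.50). In cKO, 365 of 2020 were (18.1%, interval 16.4 to 19.8), a share 4.90 times as high. Most fl/fl microglia, 1425 cells or 56.5%, had no UMI of any of the 8 genes, against 487 cells or 24.1% in cKO. Cells were found at each number of genes: in fl/fl 116, 62, 26, 28, 21 and 18 cells had 3, 4, 5, 6, 7 and 8 of the genes, and in cKO 248, 209, 147, 96, 61 and 61 cells did. Thus 18 of 93 fl/fl members (19.4%, interval 11.9 to 28.9) and 61 of 365 cKO members (16.7%, interval 13 to 20.9) had all 8 genes.

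**Figure D1:**
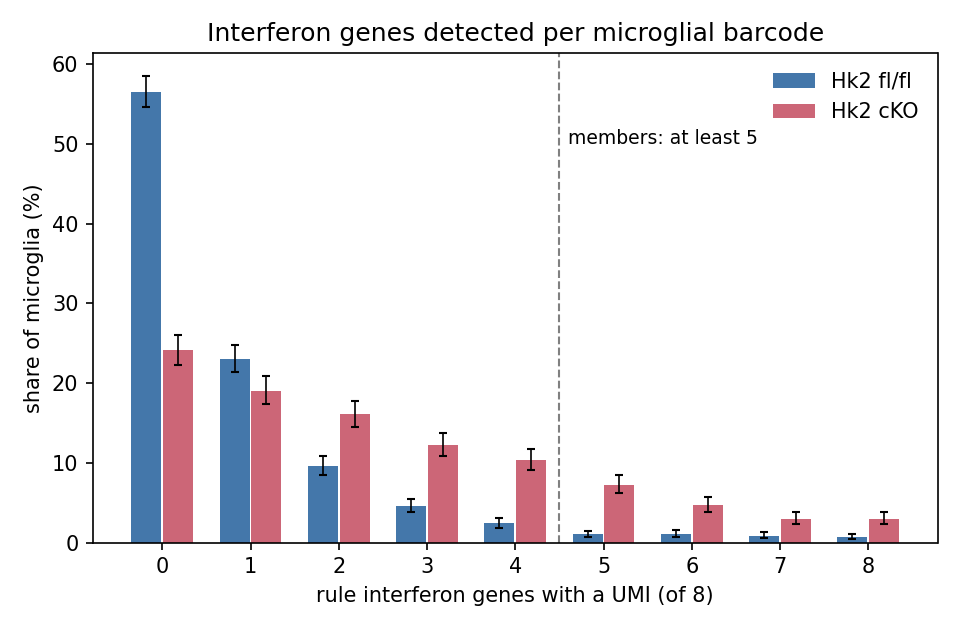
Share of microglia of each library (percent, vertical axis) by the number of the 8 interferon genes with a UMI in the cell (horizontal axis), with exact 95% binomial intervals. In fl/fl 56.5% of cells had none and in cKO 24.1%, and no gap separates the members, at 5 or more, from the rest.

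On either side of the threshold the levels of the rule's own genes differed by gene, and they are given as a description. In cKO, Isg15 summed to 115 CPM (UMIs of a gene per 1000000 UMIs of the cells summed) over the 209 cells with 4 genes and to 152 CPM over the 147 cells with 5, and Ifit3 to 49.6 and 78.5 CPM. In fl/fl, Isg15 was at 51.8 CPM in the 62 cells with 4 genes and 55.3 CPM in the 26 with 5, Ifit3 at 33.5 and 66.3 CPM, and Irf7 at 79.0 and 50.5 CPM. Ifit1 was at 15.2 CPM in the fl/fl cells with 4 genes and 45.8 CPM in those with 5, Ifit2 at 3.79 and 36.3 CPM, and Usp18 at 22.1 and 49.0 CPM. In cKO, Ifit1 was at 11.2 and 22 CPM, Ifit2 at 13.5 and 24.7 CPM, and Usp18 at 36.8 and 32.8 CPM.

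A rule on detected genes finds more members among deeply sequenced cells, and members were deeper than the rest. Their median was 17863 UMIs in fl/fl and 18103 in cKO, against 10554 and 11654 in all other microglia. The share grew with depth in both libraries. Among cells with 5000 to 10000 UMIs it was 1.54% in fl/fl (15 of 974) and 8.54% in cKO (49 of 574), and at 10000 to 20000 UMIs 3.93% (36 of 916) and 17.3% (154 of 888). At 20000 to 40000 UMIs it reached 5.71% (21 of 368) and 33.2% (122 of 368), and at 40000 or more 23% (20 of 87) and 56.7% (34 of 60). The cKO share was higher in each depth class, including the cells under 5000 UMIs (1 of 175 and 6 of 130).

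When each microglia with at least 5000 UMIs was thinned at random to 5000 UMIs, leaving out 175 fl/fl and 130 cKO cells, 33 of 2345 fl/fl cells (1.41%) and 88 of 1890 cKO cells (4.66%) still had 5 of the 8 genes. With 3 of 8 genes after thinning the shares were 4.22% and 17.6%. The cKO share was higher under 11 of 11 ways of drawing the class, which put fl/fl between 1.41% and 6.15% and cKO between 4.66% and 28.4%, with ratios of 3.31 to 5.62. Among cells with Gm28438 and without mt-Nd3, the kind found in both libraries, 17 of 488 fl/fl microglia (3.48%) and 329 of 1745 cKO microglia (18.9%) were members. Within fl/fl, the share among cells with mt-Nd3 alone was 38 of 1262 (3.01%), and its interval of 2.14 to 4.11 overlapped that of the Gm28438 cells, 2.04 to 5.52.

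**Figure D2:**
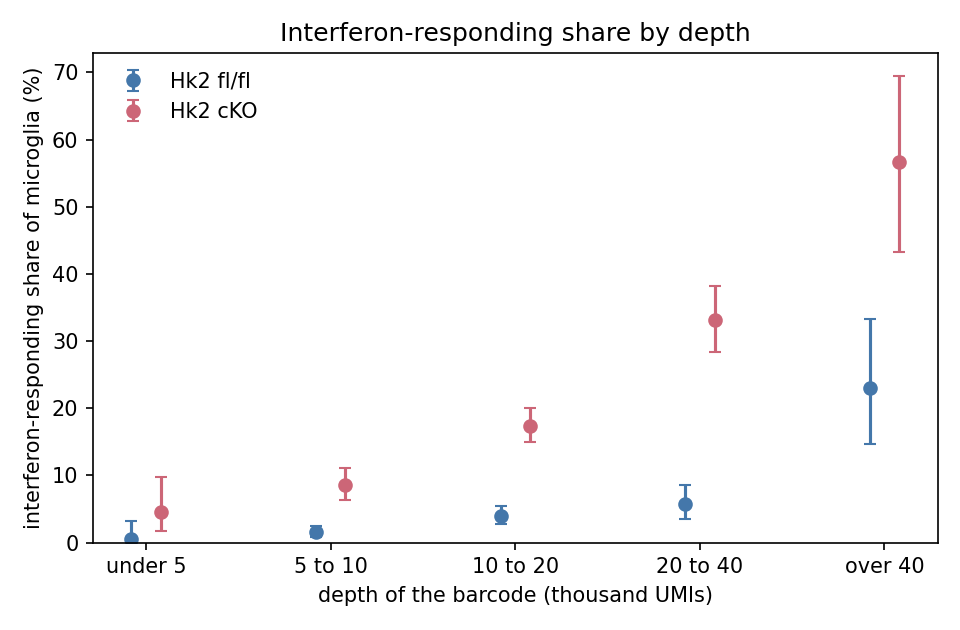
Interferon-responding cells as a percent of microglia (vertical axis) in classes of total UMIs per cell (horizontal axis) for fl/fl and cKO, with exact 95% binomial intervals. The share was higher in the deeper classes in both libraries, from 1.54% to 23% in fl/fl and from 8.54% to 56.7% in cKO between 5000 UMIs and the deepest class, and cKO was above fl/fl in each.

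Because of this, members were compared with other microglia of the same library of matched depth, the 2 nearest by total UMIs for each member, within 10%. This gave 179 fl/fl and 676 cKO cells, with medians of 16877 and 17481.5 UMIs. The match was incomplete at the top, where the deepest members had 123091 UMIs in fl/fl and 98048 in cKO. The deepest matched cells had 85566 and 61073. The 1 fl/fl and 13 cKO members without a match stayed in the member sums. Members and matched cells were alike in their mitochondrial share, with 2.96% and 2.97% in the median fl/fl cell and 2.75% and 2.76% in the median cKO cell. The log2 ratios below are of summed CPM after adding 1 CPM, over the 5770 genes that averaged 20 CPM or more across the 4 sums, called measured. The median ratio over all of these genes was -0.02 in fl/fl and -0.04 in cKO, and 2623 of the 5770 genes were higher in fl/fl members and 2206 in cKO members, fewer than were lower (3147 and 3564).

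Members and matched cells alike were required to have UMIs of at least 3 of the 4 microglial genes, so these genes describe the cells and do not test the label. P2ry12, a purinergic receptor of resting microglia, stood at 619 CPM in fl/fl members and 634 CPM in matched cells, and at 559 and 598 CPM in cKO. The 4 microglial genes of the rule had a median log2 ratio of -0.11 in fl/fl and -0.14 in cKO. Among microglial genes that the rule did not use, Cx3cr1, the fractalkine receptor, was level between members and matched cells, at 1300.1 and 1303 CPM in fl/fl and 658 and 661 CPM in cKO. A list of 20 homeostatic microglial genes had medians of -0.01 and -0.03, with 9 and 6 genes higher in members, close to the share of all measured genes given above.

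The interferon genes of the rule label the class by construction, and their values are given as a description. Ifit3, which blocks translation of foreign RNA, summed to 173.7 CPM in fl/fl members (interval 157.5 to 191) and 4.52 CPM in matched cells, and to 170.5 and 16.1 CPM in cKO. Isg15, a ubiquitin-like protein that is attached to other proteins, stood at 133 and 10.7 CPM in fl/fl and at 232 and 55.1 CPM in cKO. Rsad2, the antiviral enzyme viperin, stood at 128 and 3.33 CPM in fl/fl and at 101 and 10.1 CPM in cKO.

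Ifit1, which binds viral RNA caps, stood at 92.0 and 3.09 CPM in fl/fl and at 63.2 and 4.52 CPM in cKO, and its neighbour Ifit2 at 63.8 and 2.14 CPM and at 64.0 and 4.13 CPM. Usp18, the protease that removes Isg15 and restrains the receptor, stood at 64.7 and 5.71 CPM in fl/fl and at 74.3 and 15.9 CPM in cKO. Oasl2, a 2'-5' oligoadenylate synthetase-like protein, stood at 68.0 and 8.09 CPM and at 106.5 and 24.5 CPM. Irf7, the factor that amplifies interferon production, stood at 123 and 18.1 CPM and at 176 and 45.6 CPM. In each library the sum of all 8 was higher in members by selection, 846 against 55.7 CPM in fl/fl and 987 against 176 CPM in cKO. The matched cells of cKO had a higher sum than those of fl/fl.

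Detection differed among the 8 genes. In cKO members, Isg15 (346 of 365 cells, 94.8%), Irf7 (94.0%) and Ifit3 (90.7%) were found in most cells, while Ifit1 was found in 182 (49.9%). In fl/fl, Ifit3 (83 of 93, 89.2%), Irf7 (87.1%) and Isg15 (83.9%) came first and Ifit2 (69.9%) last. Among matched cells, Isg15 had a UMI in 30 of 179 fl/fl cells (16.8%) and 317 of 676 cKO cells (46.9%). RNA free in the suspension can also give such UMIs, and no cell type here is known to lack interferon genes. For scale, S100a8, a neutrophil gene, had a UMI in 24.7% of fl/fl members and 24.0% of matched cells and in 19.7% and 18.6% in cKO.

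The genes lie apart in the genome, other than the Ifit cluster. In the GRCm38 annotation Ifit2 spans chr19:34550694-34576419, Ifit3 chr19:34583531-34588731 and Ifit1 chr19:34640871-34650009, each on the + strand. RefSeq promoter windows of GRCm38.p6, from 250 bases before to 50 after each gene's start, were searched on both strands for the letters GAAANNGAAA, which read TTTCNNTTTC from the other strand, with overlapping matches counted. Of 32851 windows 1131 held a match (3.44%), and of 4584 measured genes with a window 195 did (4.25%). Of the 7 rule genes with a window, 4 held one: Isg15, Ifit1, Ifit3 and Rsad2. Ifit2, Irf7 and Oasl2 had none within these bases. The matched stretches are shown because they are what these 4 promoters share in letters, with 12 bases on each side, 5′ to 3′ on the gene's own strand and the matches in capitals.
Isg15: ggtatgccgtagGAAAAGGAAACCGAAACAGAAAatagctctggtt
Ifit1: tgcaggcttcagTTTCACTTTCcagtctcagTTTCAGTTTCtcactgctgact
Ifit3: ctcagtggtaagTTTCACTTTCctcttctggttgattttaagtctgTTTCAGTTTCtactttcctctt
Rsad2: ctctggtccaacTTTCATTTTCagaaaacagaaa
The stretch of Isg15 (chr4:156200863-156200908, - strand) holds 3 overlapping matches, 78 to 66 bases before the start. That of Ifit1 (chr19:34640773-34640825, + strand) holds 2, at 104 and 85 bases, and that of Ifit3 (chr19:34583361-34583428, + strand) 2, at 156 and 122 bases. Rsad2 (chr12:26456551-26456584, - strand) has 1 at 120 bases. A match describes letters and is not a measured binding site.

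Beyond the rule, 60 of the 5770 genes were at least 2-fold higher in fl/fl members (1.04% of all, the 8 rule genes among them) and 50 in cKO members (0.867%). In both libraries 38 genes were (0.659%), the 8 rule genes and 30 others. Of the 38, 13 were on the list of antiviral effectors, 4 on that of nucleic acid sensors and 4 on that of PYHIN genes. H2-Aa, H2-Eb1 and Ccl5 were also among them, with most of their fl/fl UMIs in few cells, as described below. At least 2-fold lower were 10 genes in fl/fl (0.173%) and 2 in cKO (0.0347%). Of these, 6 in fl/fl and 1 in cKO were on the list of neutrophil markers, and 1 in each on that of monocyte markers. The rest in fl/fl were on neither list. Camp and Chil3 are described below. Of the 30 genes, 23 had a promoter window and 11 of these held the motif letters. These 3 are printed as examples from the groups below.
Irgm1: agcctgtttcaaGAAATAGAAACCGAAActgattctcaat
Stat2: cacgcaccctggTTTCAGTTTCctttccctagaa
Slfn5: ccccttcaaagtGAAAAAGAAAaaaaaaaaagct
Irgm1 (chr11:48871423-48871462, - strand) holds 2 overlapping matches 30 and 24 bases before its start, Stat2 (chr10:128270264-128270297, + strand) 1 at 222 bases and Slfn5 (chr11:82951935-82951968, + strand) 1 at 155 bases. None of the 3 microglial rule genes with a window held a match, but 3 genes are too few to set against the 4.25% of measured genes. Of the 19 measured MHC class I genes with a window, 5 held one (26.3%).

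**Figure D3:**
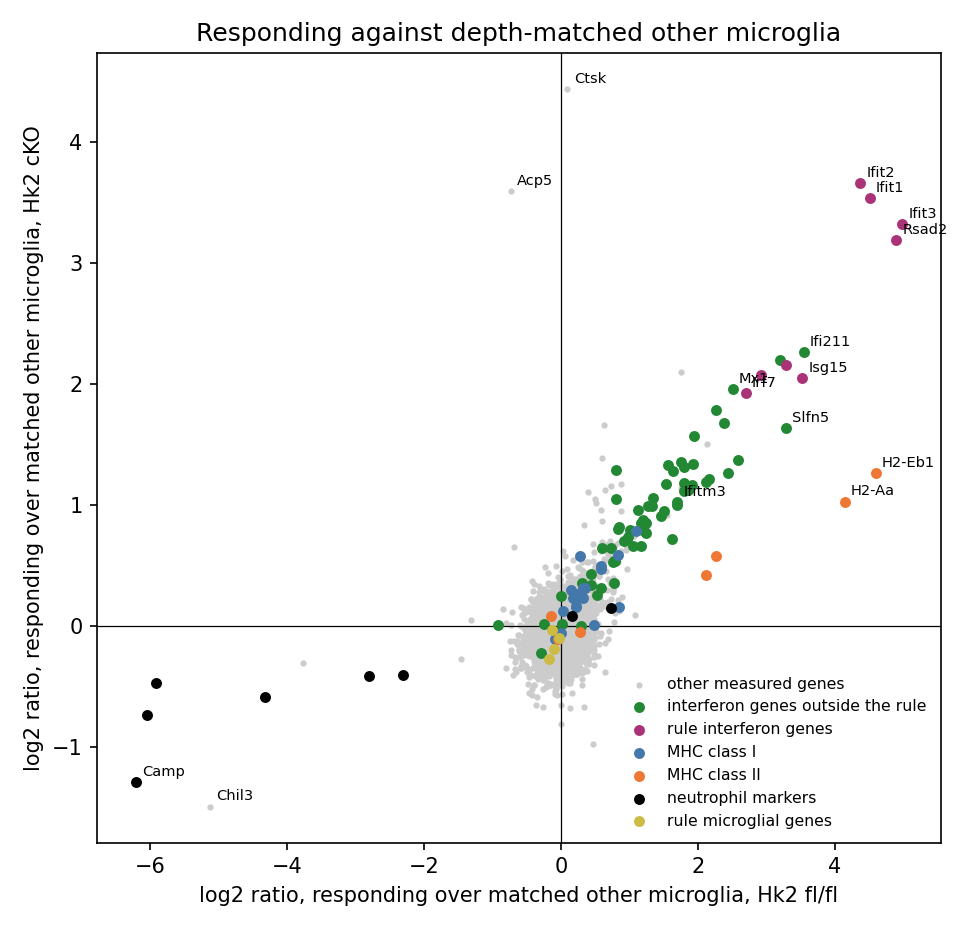
Log2 ratio of summed CPM, with 1 CPM added, in interferon-responding over depth-matched other microglia in fl/fl (horizontal axis) and cKO (vertical axis), 1 point per measured gene, coloured by list. Ifit3 lies at 4.98 and 3.32, and most interferon genes outside the rule run from near 0 towards the upper right. Some lie below 0, with lowest ratios in the IFITM and IFI27 list of -0.92 in fl/fl and -0.22 in cKO. Camp, a neutrophil marker, lies at the lower left at -6.21 and -1.29.

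Interferon ligands were near the limit of detection. All 21 ligand genes of the list were in the files and none reached 20 CPM. Ifnb1, which encodes interferon beta, had 19 UMIs in fl/fl members and 30 in matched cells, and 29 and 39 in cKO. It was seen in 7 of 93 fl/fl members (7.53%) and 10 of 179 matched cells (5.59%), and in 11 of 365 cKO members (3.01%) and 21 of 676 matched cells (3.11%). Of the 21 genes, 19 had no UMI in fl/fl members and 18 none in cKO members.

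Receptors and their kinases were level. The 7 measured genes of 9 had a median log2 ratio of -0.01 in both libraries, within -0.14 to 0.19 in fl/fl and -0.16 to 0.19 in cKO. Ifnar1 stood at 45.2 CPM in fl/fl members and 39.5 CPM in matched cells, and at 35.1 and 33.7 CPM in cKO. Ifnar2, named for its role in the receptor, had 124 and 126 CPM, and 126 and 127 CPM. Jak1 and Tyk2 lay between -0.10 and 0.19 in log2 ratio.

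Of the 9 measured STAT and IRF genes, 6 were higher in fl/fl members and 7 in cKO members, with medians of 0.13 and 0.09. Of all 5770 measured genes, 2623 and 2206 were higher. At least 2-fold higher were 2 in fl/fl and 1 in cKO. Stat2 and Irf9, parts of the interferon transcription complex, were higher in members of both libraries. Stat2 was at 39.0 CPM in fl/fl members and 8.09 CPM in matched cells (log2 ratio 2.14), and at 35.5 and 11.8 CPM in cKO (1.51). Irf9 differed less, at 60.1 and 35.5 CPM in fl/fl (0.74) and 57.0 and 43.5 CPM in cKO (0.38). Irf8, a factor that microglia need to develop, was level at 423 and 409 CPM and at 426 and 400.1 CPM.

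Sensors of viral nucleic acid were mostly higher. Of 10 measured, 8 were higher in fl/fl members and 9 in cKO members, 5 and 4 of them at least 2-fold, with medians of 0.82 and 0.49. Ddx58, the RNA helicase RIG-I, stood at 56.0 against 14.8 CPM in fl/fl and 54.1 against 24.3 CPM in cKO. Ifih1, the related sensor MDA5, stood at 70.9 against 18.8 CPM and 58.8 against 26.4 CPM. Zbp1, which binds Z-form nucleic acid and can start cell death, stood at 74.6 against 11.7 CPM and 102 against 38.6 CPM. Dhx58, a regulator of both helicases, had ratios of 1.57 and 1.33.

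Antiviral effectors were the longest of the interferon lists. Of 32 measured of 47, 31 were higher in fl/fl members and 32 in cKO members, with medians of 1.29 and 0.89. At least 2-fold higher were 22 in fl/fl and 14 in cKO, and 13 were so in both. All 47 together summed to 4610 CPM in fl/fl members against 2370 CPM in matched cells, and 6010 against 3624 CPM in cKO. Without the barcodes that carried UMIs of at least 2 of 10 neutrophil, monocyte or endothelial markers, 24 effectors were at least 2-fold higher in cKO.

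Mx1, a GTPase that traps viral components, stood at 39.8 CPM in fl/fl members (interval 32.2 to 48.6) and 6.19 CPM in matched cells (4.04 to 9.07), and at 44.9 and 10.8 CPM in cKO. Oasl1, which restrains translation of Irf7, stood at 36.5 and 3.09 CPM and at 46.3 and 9.27 CPM. Isg20, an RNA-degrading exonuclease, stood at 31.1 and 5.71 CPM and at 37.1 and 10.05 CPM. Among the most abundant, Bst2, the tetherin that holds budding virus at the membrane, stood at 529 and 269 CPM and at 1063 and 639 CPM. In these 4 genes the ratios were smaller in cKO, where matched cells had more.

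Membrane proteins of the IFITM and IFI27 families were mixed. Of 5 measured of 7, 3 were higher in fl/fl members and 4 in cKO members, where 2623 and 2206 of all 5770 measured genes were. The medians were 0.21 and 0.24, with 1 gene at least 2-fold higher, Ifitm3. In fl/fl, Ifitm6 (13.3 against 25.9 CPM) and Ifi27 (62.2 against 76.2 CPM) were lower. All 7 together summed to 3287 CPM in fl/fl members and 1928 CPM in matched cells, and to 5848 and 3576 CPM in cKO. Ifitm3, which stops virus from entering the cytosol, stood at 860.2 and 265 CPM in fl/fl (1.69) and at 1382 and 678 CPM in cKO (1.03). Ifi27l2a was the most abundant of the 7, at 2271 and 1494 CPM and at 4326 and 2767 CPM, with ratios of 0.60 and 0.64. Ly6e, which restricts virus entry, had ratios of 0.44 and 0.43.

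Other antiviral families behaved alike. All 5 measured PYHIN genes, which encode DNA-binding proteins, were higher in both libraries, with medians of 1.64 and 1.28. Ifi211 stood at 43.9 against 2.86 CPM in fl/fl and 40.9 against 7.71 CPM in cKO, Ifi209 had ratios of 2.38 and 1.68, and Ifi204 stood at 259.9 against 89.2 CPM and 259 against 114 CPM. The 3 measured Schlafen genes had medians of 1.26 and 0.99, with Slfn5 at 120.2 against 11.4 CPM and 155 against 49.2 CPM. Members of such families are near copies of each other, and reads that fit several copies may have been split or dropped, so single members are uncertain.

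The 5 measured guanylate-binding and immunity-related GTPases, of 17 in the files, were all higher, with medians of 0.80 and 0.99. Irgm1 stood at 80.8 against 22.6 CPM in fl/fl and 74.7 against 34.0 CPM in cKO. All 4 enzymes of Isg15 conjugation were higher, with medians of 1.02 and 0.83. The ligase Herc6 had ratios of 2.11 and 1.19, and the conjugating enzyme Ube2l6 1.12 and 0.96. Rtp4, an inhibitor of viral RNA replication, stood at 96.2 against 16.9 CPM and 139 against 57.5 CPM. The 6 measured feedback genes other than Usp18 had medians of 0.12 and 0.10, with none at 2-fold.

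MHC class I presentation was modestly higher. Of 20 measured genes, 18 were higher in each library, with medians of 0.27 and 0.25, and 1 in fl/fl (Tap1) reached 2-fold. Tap1, a subunit of the peptide transporter, stood at 104 against 47.8 CPM in fl/fl and 118 against 68.1 CPM in cKO. B2m, the shared light chain, had ratios of 0.18 and 0.23. H2-T22 stood at 48.1 against 26.7 CPM and 56.4 against 37.2 CPM.

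Among genes of MHC class II presentation, H2-Aa came from few members, while in fl/fl Cd74 was found in more of them. H2-Aa, an alpha chain, stood at 168 against 8.57 CPM in fl/fl (log2 ratio 4.14) and at 31.4 against 14.9 CPM in cKO (1.03). In fl/fl only 12 of 93 members had a UMI of it, and 3 of them held 61.2% of its UMIs; in cKO 10 of 365 members had one and 3 held 90.2%. Cd74, the invariant chain, was found in 70 fl/fl members, of which 3 held 45.3% of its UMIs. An alternative chosen after seeing the data left out barcodes with UMIs of at least 2 of H2-Aa, H2-Ab1, H2-Eb1 and Cd209a. With it the list's medians of 2.12 and 0.42 became -0.02 and -0.05. H2-Aa and H2-Eb1 are themselves on the list, so this filter acts on the medians by construction. It cannot show which cells the list's UMIs came from. Cd209a and H2 class II genes are known from dendritic cells, whose list of markers summed to 105 and 98.3 CPM in fl/fl members and matched cells and to 66.2 and 96.1 CPM in cKO, with 2 and 1 of its 10 genes at 0 in members. Border macrophages, which can carry class II genes too, are given below.

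Chemokines differed little at matched depth. Cxcl10, an interferon-induced attractant of T cells, stood at 906 against 505 CPM in fl/fl (0.84) and at 882 against 807 CPM in cKO (0.13). The median member had 8 UMIs of it in fl/fl and 4 in cKO, against 2 in matched cells of both. Ccl12 had ratios of 0.76 and 0.30, Ccl2 of 0.38 and 0.00, and Ccl4, among the most abundant at 2870.1 CPM in fl/fl members and 4017 CPM in cKO members, of 0.34 and 0.14. Ccl5, an attractant of T cells and monocytes, was at least 2-fold higher in both (38.6 against 10.7 CPM and 29.4 against 6.08 CPM) but was found in 11 of 93 fl/fl members, 3 of which held 69.9% of its UMIs. Without the barcodes with other cells' markers its fl/fl ratio was -1.92.

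By list median, the programs given next were close to level, while single genes in them differed. The 15 measured genes of the TNF, IL-1 and NF-kB list had medians of 0.09 and -0.13. Of these 15 genes, 12 were higher in fl/fl members and 2 in cKO members, where 2623 and 2206 of all 5770 measured genes were. Against those shares the list leaned higher in fl/fl members and lower in cKO members. Cxcl2, a neutrophil attractant of that response, was lower in members, at 819 against 1137 CPM and 696 against 933 CPM; in fl/fl, with members and all others thinned to 5000 UMIs, its ratio was 0.34. Damage-associated genes had medians of 0.00 and 0.08 and lysosomal genes -0.01 and 0.04. Axl, a receptor for dying cells, stood at 175 against 134 CPM and 188 against 130 CPM. Il18, a cytokine that inflammasomes mature, had ratios of 0.87 and 0.62.

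Glycolytic genes, the pathway of the deleted enzyme, were not higher: 3 of 15 measured were higher in members of each library, with medians of -0.10 and -0.05, where 2623 and 2206 of all 5770 measured genes were higher. Ldha, which makes lactate, stood at 340 against 427 CPM in fl/fl and 438 against 445 CPM in cKO. Nuclear genes of the respiratory chain had medians of 0.01 and 0.02.

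G2/M genes were detected in like shares of members and matched cells. With cells thinned to 5000 UMIs, 37 of 92 fl/fl members (40.2%) and 69 of 177 matched cells (39.0%) had UMIs of at least 3 of 12 G2/M genes, and 115 of 359 cKO members (32.0%) and 205 of 664 matched cells (30.9%) did. For 12 S-phase genes the shares were 40.2% and 37.9% in fl/fl and 29.2% and 36.1% in cKO. All 12 S-phase genes had lower summed CPM in cKO members, with a median of -0.34. At full depth the cKO S-phase shares were 60.5% and 61.1%. Mki67, a proliferation marker, was at 148 against 166 CPM in fl/fl and 91.3 against 128 CPM in cKO.

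Markers of other cells moved with membership, and their part in the results was not tested. The 10 neutrophil markers, with none at 0 in members, summed to 1098 CPM in fl/fl members and 6978 CPM in matched cells, and to 3676 and 5117 CPM in cKO. Taken without matching, all other microglia of the fl/fl library had a sum of 2787 CPM, and those of the cKO library 4068 CPM. These sums lay below the matched cells and above the members, so the size of the gap depended on the comparison set, most of all for fl/fl. Camp, a granule peptide, was at 10.4 against 840.4 CPM in fl/fl and 211 against 519 CPM in cKO, but 3 matched fl/fl cells held 69.4% of those UMIs. Chil3, a myeloid gene, was at 2.49 against 121 CPM and 32.0 against 92.0 CPM. The 10 endothelial markers, again with none at 0, summed to 254 against 154 CPM and to 316 against 143 CPM, with all 5 measured at least 2-fold higher in cKO; Flt1, a VEGF receptor, was at 47.7 against 28.3 CPM and 59.8 against 26.2 CPM.

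The 10 border macrophage markers, none of them measured, summed to 69.6 CPM in fl/fl members (interval 59.5 to 81.0) and 44.0 CPM in matched cells (37.9 to 50.9), and to 32.7 CPM (28.8 to 36.8) and 15 CPM (12.9 to 17.2) in cKO. Lyve1 and Cd209f of that list were at 0 in members of both libraries, and Cd163 in cKO members. Of the 10 markers of T and NK cells, 9 and 7 were at 0 in fl/fl and cKO members. When barcodes with at least 2 of the neutrophil, monocyte or endothelial markers were left out, 31 of 1346 fl/fl microglia (2.30%) and 132 of 1042 cKO microglia (12.7%) were members. In cKO, Ctsk, a protease of osteoclasts, was at 93.5 against 3.35 CPM, and 1 barcode held 98.5% of its UMIs; Acp5, an osteoclast phosphatase, had 75% of its UMIs in 1 barcode.

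Members varied widely among themselves. The summed level of 82 interferon-list genes that the rule did not use ranged over fl/fl members from 2627.5 CPM through a median of 7720.4 to 24873 CPM, and over matched cells from 931 through 3347 to 8089 CPM. In cKO members it ranged from 2488 through 8416 to 51184 CPM, and in matched cells from 1136 through 4965.5 to 12073 CPM. The distributions overlapped in both libraries, and the median matched cell of cKO lay above that of fl/fl.

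Those 82 genes followed the number of rule genes detected. In fl/fl the sum over cells was 3102 CPM with none of the 8, 4412 CPM with 3, 5399 CPM with 5 and 11343 CPM with all 8. In cKO it was 3779, 6034, 7098 and 11532 CPM. At each step below 8 the cKO value was above the fl/fl value, and at 8 the libraries were nearly level. Members with all 8 genes also had more MHC class I RNA, 7974 CPM against 6646.5 CPM in cells with none in fl/fl, and 10079 against 7775 CPM in cKO. Homeostatic genes went from 43668 to 44888 CPM in fl/fl and from 48048 to 43350 CPM in cKO, and were lower in some of the classes between. Depth differs between these classes as well, since more genes are detected in deeper cells.

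**Figure D4:**
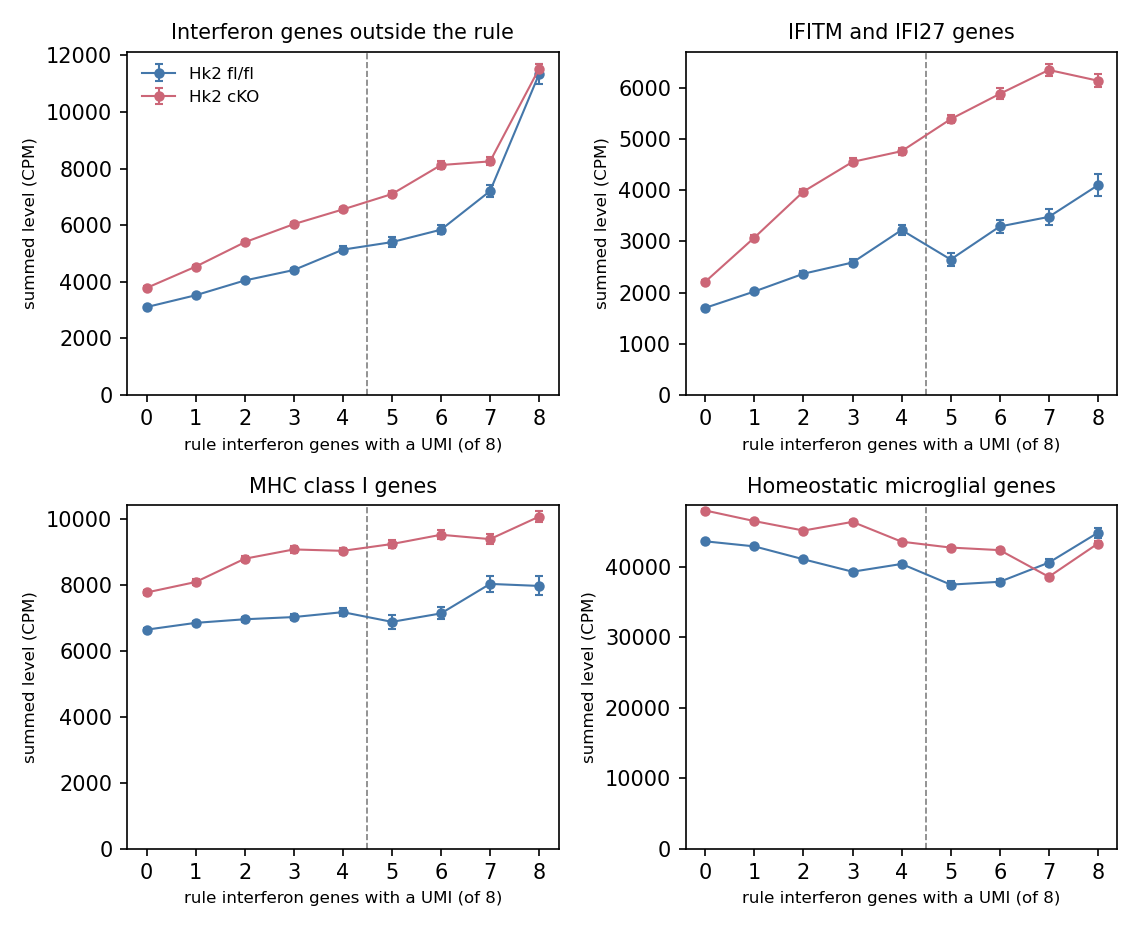
Summed CPM (vertical axes) of 4 gene lists in microglia grouped by how many of the 8 rule genes had a UMI (horizontal axes), for fl/fl and cKO, with exact 95% Poisson intervals and a dashed line before the members. The 82 interferon genes outside the rule go from 3102 to 11343 CPM in fl/fl and from 3779 to 11532 CPM in cKO, and homeostatic genes go from 43668 to 44888 CPM and from 48048 to 43350 CPM with lower values between.

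In the comparison of genotypes, Hk2 was lower in cKO members as in other cells. It stood at 159 CPM in fl/fl members and 41.1 CPM in cKO members (log2 ratio -1.93), and at 169 and 42.6 CPM in matched cells (-1.96). It had a UMI in 80 of 93 fl/fl members (86.0%) and 155 of 365 cKO members (42.5%). Hk2 lies at chr6:82725025-82774454 on the - strand, and the libraries count tags near the 3' end, which need not lie in the deleted part. Cx3cr1, whose locus carries the recombinase in cKO, was at 1300.1 CPM in fl/fl members and 658 CPM in cKO members, a ratio of -0.98 in members and in matched cells alike.

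Between cKO and fl/fl members, 19 genes were at least 2-fold higher in cKO (0.329% of all) and 11 lower (0.191%), with a median over all genes of -0.04. Without barcodes with other cells' markers the numbers were 92 and 57, where 69 and 8 genes were higher and lower in cKO members than in matched cells. The 8 rule genes, held up in both by selection, had a median ratio of 0.10 in members, against 1.35 in matched cells. Isg15 was higher in cKO members (0.80, and 2.26 in matched cells), as were Oasl2 (0.64 and 1.49) and Irf7 (0.52 and 1.29). Ifit3 and Ifit2 were level in members, at -0.03 and 0.00, and higher in matched cells, at 1.63 and 0.71. Ifit1 (-0.53) and Rsad2 (-0.34) were lower in cKO members and higher in matched cells (0.43 and 1.36). In matched cells too the rule acts, since it caps them at 4 of the 8 genes.

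Outside the rule, 25 of 32 antiviral effectors were higher in cKO than in fl/fl members, with a median of 0.16 against 0.63 in matched cells; of all 5770 measured genes, 2409 were higher in cKO members and 2575 in cKO matched cells. Bst2 and Oas1a were the effectors at 2-fold. Bst2 had ratios of 1.00 in members and 1.24 in matched cells. Oas1a, a 2'-5' oligoadenylate synthetase named after its values were seen, stood at 19.1 CPM in fl/fl members and 47.0 CPM in cKO members (1.26), and at 6.90 and 22 CPM in matched cells (1.54). Ifitm3 had ratios of 0.68 and 1.35, and Ifi27l2a 0.93 and 0.89. MHC class I genes had medians of 0.22 and 0.37, with B2m at 0.54 and 0.49. Sensors had medians of 0.02 and 0.37.

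Some interferon genes that were higher in cKO members did not keep that direction under every alternative. Slfn5 (0.37) and Rtp4 (0.53) had ratios of -0.05 and -0.06 without barcodes carrying other cells' markers, an alternative added for this comparison after seeing the data. Zbp1 kept its direction, at 0.44 in members (0.20 to 0.63 over 6 alternatives) and 1.65 in matched cells. With 92 members per library matched to each other in depth, the rule genes' median was -0.16.

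Many of the genes at 2-fold between genotypes belong to other cells' lists or to few barcodes. Neutrophil markers had a median of 2.62 in members and -0.42 in matched cells, with Camp at 4.22. Without the 3 barcodes of each group with most UMIs of it, Camp was at 4.28. Without barcodes with other cells' markers it was at -1.19. Camp is itself one of the markers of that filter, so the filter acts on its value by construction. H2-Aa (-2.38) and Cd74 (-1.48) were lower in cKO members, where class II genes had a median of -1.45 against 0.24 in matched cells. Ctsk (5.69) and Acp5 (3.56) rest on the barcodes described above, and without the 3 barcodes with most UMIs they were at 0.91 and 1.28. Egr2, an immediate early factor, was higher by 1.64 in cKO members and by 1.37 in matched cells, with UMIs in 173 of 365 cKO and 34 of 93 fl/fl members. Cd69, an early activation marker, stood at 48.9 CPM in fl/fl members and 24.2 CPM in cKO members (-0.98), and at 22.6 and 22.7 CPM in matched cells.

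**Figure D5:**
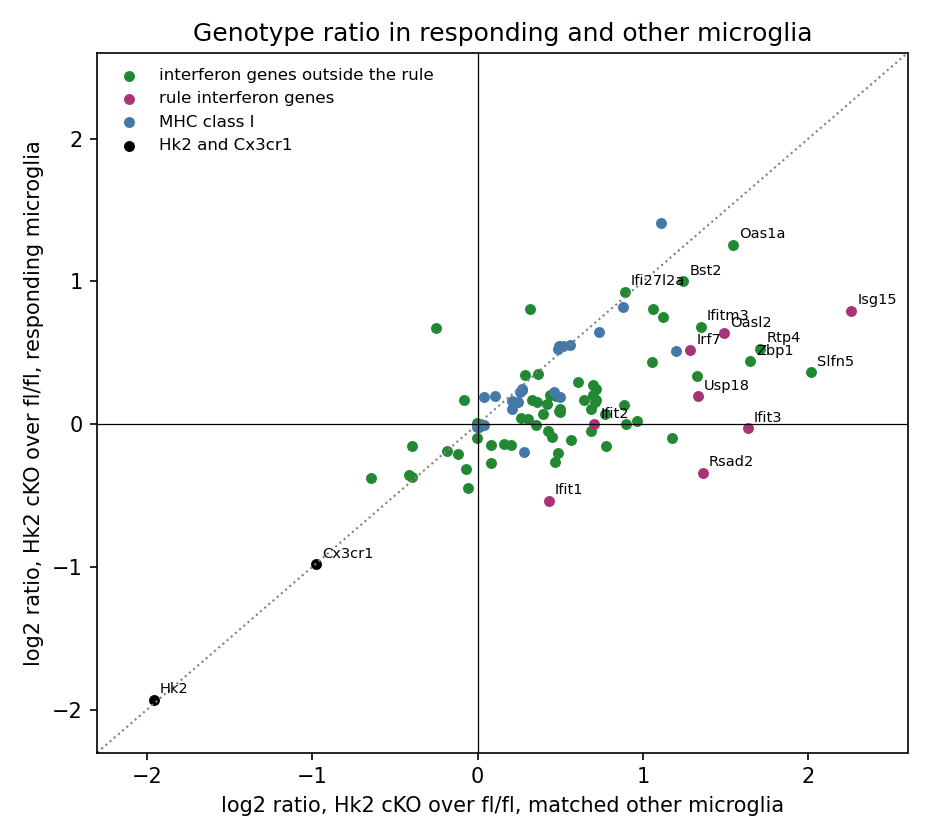
Log2 ratio of summed CPM, cKO over fl/fl, in depth-matched other microglia (horizontal axis) and in interferon-responding microglia (vertical axis), 1 point per gene of the interferon and MHC class I lists, with Hk2 and Cx3cr1; the dotted line marks equal ratios. Isg15 lies at 2.26 and 0.80, below the line, and Hk2 on it at -1.96 and -1.93.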

How the data were processed

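Cells were captured with the 10x 3' v3 kit, per the labels' protocols, and reads were processed with bcl2fastq and Cell Ranger 3.1.0 against GRCm38, per the submitters' processing notes. The deposited matrices hold UMI counts per gene and cell barcode, whole numbers without normalization, for 1 fl/fl and 1 cKO library. The labels and headers do not say how empty droplets or doublets were handled. Each of the 55450 gene identifiers was found in GENCODE M21. Groups follow the genotype label. The members and gene lists were chosen with earlier results of these data known.

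UMIs were summed over members and over depth-matched other microglia (2 per member where available; 87, 5 and 1 of the fl/fl and 324, 28 and 13 of the cKO members had 2, 1 and no match), scaled to CPM and compared as log2 ratios after adding 1 CPM, without a test, since each genotype has 1 library. Measured genes had a mean of at least 20 CPM over the 4 sums. Members summed to 2412141 UMIs in fl/fl and 8084194 in cKO, matched cells to 4201456 and 12838684, and all barcodes to 37476201 and 32896996, so the fl/fl members give the widest intervals. Shares have exact Clopper-Pearson and sums exact Poisson 95% intervals.

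Named were the rule genes, Hk2, Cx3cr1, the 15 highest and 10 lowest genes by the smaller of both libraries' ratios with intervals that do not overlap, up to 4 genes with the largest ratios and the 2 most abundant of each of 37 lists, and the 10 highest and lowest genes between genotypes. Ifnar2 and Oas1a were named after their values were seen. One gene that the rule names is not reported here. Alternatives changed the rule's thresholds, the matching, the thinning, the added CPM, the filter on low values, the scaling (TMM factors of edgeR 4.0.16 in R 4.3.3) and the barcodes left in. Sums and intervals used scipy 1.17.1, pandas 2.3.3 and numpy 2.4.6 under Python 3.11.15, and figures matplotlib 3.10.9. The ratios and intervals were tested on counts simulated with Poisson error alone. That simulation leaves out spread among cells, such as genes held by few barcodes, so it does not test the intervals against such spread.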

Additional observations from a re-analysis of the deposited data

Results flagged for a closer look

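For 8 of the 5770 measured genes the ratio of members over matched cells had opposite signs in the libraries. Poisson intervals of members and matched cells did not overlap in either library for these 8. With the same condition, 159 genes were higher and 54 lower in members of both libraries. These intervals cover counting error only, and the difference between the libraries was not tested. The log2 ratios in fl/fl and cKO were -0.68 and 0.66 for Ccr1, a chemokine receptor, and 0.64 and -0.38 for the histone gene Hist1h4d. They were 0.48 and -0.26 for Osm, which encodes the cytokine oncostatin M, and 0.47 and -0.21 for Edn1, which encodes endothelin. The immediate early genes Jund (0.29 and -0.18) and Btg2 (0.14 and -0.11) were higher in fl/fl members and lower in cKO members. Malat1, a nuclear RNA, had 0.10 and -0.033, and the actin-binding Tmsb4x had -0.041 and 0.010.

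Barcodes that passed the filters but were not microglia by the rule also met the interferon rule, in 7 of 306 fl/fl cases (2.29%, median 7369 UMIs) and 24 of 281 cKO cases (8.54%, median 6343.5 UMIs). In these cKO barcodes the median mitochondrial share was 6.60%, against 2.75% in cKO members.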

How the results depend on the processing

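The cKO share stayed above the fl/fl share in 11 of 11 settings. Shares in fl/fl and cKO were 6.15% and 28.4% with at least 4 of 8 genes, 2.66% and 10.8% with 6, 2.90% and 16.3% without the deepest 5% of barcodes, 2.30% and 12.7% without barcodes with other cells' markers, and after thinning 2.35% and 9.26% (4 genes) and 1.41% and 4.66% (5 genes). Effector medians lay within 1.14 to 1.92 in fl/fl and 0.84 to 1.31 in cKO over the alternatives run. Counts at 2-fold depended on depth and filter, in part because fewer cells or more low genes enter. Genes higher in fl/fl members numbered 30 at a mean of 50 CPM (effectors 10, sensors 2), 416 without a filter (effectors 34), 117 after thinning, 118 without the deepest 5% and 191 without other cells' markers; lower were 358, 62, 29 and 137 in the last 4. Genes higher in cKO members numbered 19 at 50 CPM (effectors 6, sensors 1) and 172 without a filter (effectors 23). Genes lower in cKO numbered 30 without a filter, 1 against all other microglia, 4 with 6 genes, 8 against others with at most 1 gene (effectors higher 23), 8 without other cells' markers (effectors higher 24) and 11 without the deepest 5%. Between genotypes, 29 genes were higher without class II barcodes, and 92 higher and 57 lower without other cells' markers.

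Signs also turned, for small and for large values. The cKO G2/M median was 0.076 against all others, 0.044 thinned, 0.047 against others with at most 1 gene and 0.12 without other cells' markers, and the cKO feedback median -0.00065 against all others and -0.015 against others with at most 1 gene. Thinned, Cxcl2 in fl/fl was 0.34 and Mki67 in cKO 0.066. Without a filter, the other chemokines' fl/fl median was -0.15. Without the deepest 5%, the fl/fl endothelial median was -0.045 and Flt1 -0.28. Without class II barcodes, fl/fl values were -0.022 (class II median), -0.0016 (endothelial median), -0.00048 (H2-Aa) and -1.50 (H2-Eb1). In the same setting cKO values were -0.050 (class II median), -0.23 (H2-Aa), -0.030 (Cd74) and -1.31 (Ctsk). There the cKO over fl/fl values were -0.11 (rule median) and -0.20 (Acp5). That filter uses H2-Aa and H2-Eb1, so their values and the class II median moved in part by construction. Without other cells' markers, fl/fl values were 0.082 (microglial rule median), 0.090 (Siglech), 0.12 (Fcrls), -1.92 (Ccl5), 0.62 (Camp) and -2.79 (Flt1). In the same setting cKO values were -0.14 (class II median), -0.24 (H2-Eb1), -0.34 (Cd74), 0.033 (S100a8) and -1.88 (Flt1). There the cKO over fl/fl values were -0.36 (rule median), -0.052 (Slfn5), -0.062 (Rtp4) and -1.19 (Camp). Camp, S100a8 and Flt1 are markers of that filter, so it acts on their values by construction. With members matched in depth between libraries the rule median was -0.16. The cause was not tested where none is named. No paired analysis was possible because each genotype has 1 library.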
